A study of Homo sapiens with 6 samples.

Results

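The mitochondrial carrier family, whose genes carry the symbol *SLC25A* and a number, was examined in RNA-seq data from LNCaP cells treated with the CDK9 inhibitor CDKI-73. Members were the rows of the deposited table with such a symbol and a mean of at least 0.5 CPM (a gene's reads relative to all counted reads of the sample) over the 6 samples, a rule that uses the level over all samples and not the difference between groups. Of 47 family genes listed among 29744 genes in the table, 39 were members. LNCaP is an established line of human prostate cancer cells that respond to androgen. CDKI-73 blocks CDK9, the kinase of P-TEFb that releases paused RNA polymerase II into productive elongation. The paper states that CDKI-73 acts on CDK1, CDK2 and CDK7 as well, and that effects not tied to CDK9 remain possible. The groups were LNCaP cells given 250 nM CDKI-73 for 4 h (3 samples) and LNCaP cells given the vehicle DMSO for the same 4 h (3 samples), with no other allele or agent named in the labels. All 6 samples came from 1 cell line and 1 time point, so the values describe levels of polyadenylated RNA in that line at that time only.

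Carriers of this family sit in the inner mitochondrial membrane and exchange metabolites between the cytosol and the matrix. They move ADP, ATP and phosphate for oxidative phosphorylation, carboxylates and amino acids for the citric acid cycle and its shuttles, and cofactors and iron for matrix enzymes. All are encoded in the nucleus, made in the cytosol and imported, so their mRNAs depend on RNA polymerase II. Many occur as pairs of close paralogs with the same or a similar substrate.

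The numbers of counted reads, inferred from the step between CPM values, were 46.1 to 60.9 M per sample, so 1 read was worth 0.0164 to 0.0217 CPM. Because the DMSO samples carry the name of CDKI-73 in their titles too, the group was taken from the treatment label. *MCL1*, an anti-apoptotic gene with a short-lived mRNA, had 55.4, 61.19 and 29.36 CPM in CDKI-73 samples, against 331.51, 325.73 and 313.6 CPM in DMSO samples. *MYC* had 76.09, 74.31 and 44.09 CPM in CDKI-73 samples, against 181.11, 176.59 and 184.38 CPM in DMSO samples. CDKI-73 replicate 3 was the lowest of its group for both genes. All 10 luminal prostate markers were at 1 CPM or more in every sample and summed to 6605.42 to 6828.12 CPM with CDKI-73 and 7800.02 to 8193.84 CPM with DMSO. Of the markers of other cell types, 1 per list reached 1 CPM, namely *COL1A1* of 4 stromal, *CD68* of 4 immune, *VWF* of 3 endothelial and *KRT14* of 3 basal markers. The stromal list summed to 12.82 to 15.0 CPM with CDKI-73 and 9.47 to 10.21 CPM with DMSO, and the immune list to 6.26 to 7.26 CPM with CDKI-73 and 4.85 to 5.62 CPM with DMSO. The endothelial list overlapped between groups, at 10.02 to 11.89 CPM with CDKI-73 and 10.04 to 10.14 CPM with DMSO, and the basal list did not exceed 1.31 CPM. Their part in the results was not tested. In bulk RNA, fewer cells of a type and less RNA per cell cannot be told apart, and CPM are shares of a total that may itself have changed.

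The family split in both directions. With limma on log2(CPM + 0.1), 19 of the 39 members passed as lower with CDKI-73 and 12 as higher at a Benjamini-Hochberg adjusted p of 0.05 or less, while 8 did not pass. Over all 13373 genes tested, 48.2% were lower and 24.2% were higher, so the members' shares lay near those of all genes. Falls of at least 2-fold were called in 7 members, among them *SLC25A12*, *SLC25A44*, *SLC25A32*, *SLC25A25*, *SLC25A30* and *SLC25A28*, against 22.3% of all genes. The largest rise, 0.58 on the log2 scale for *SLC25A39*, was below 2-fold, a size of rise that 1.11% of all genes passed. The median log2 fold change was -0.12 over members, between -1.87 and 0.58, and -0.18 over all genes. The CDKI-73 samples were all below the DMSO samples in 18 members, as in 50.0% of all genes, and above in 14 members, as in 25.9% of all genes, while the groups overlapped in 7 members.

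Which members moved depended in part on the scale. Scaling each sample to 3 reference genes of the study (*GAPDH*, *HPRT1* and *ACTB*) shifted the median of all genes by -0.41 on the log2 scale, and scaling to the median of gene ratios or to the upper quartile shifted it by 0.20 or 0.28. The split of 19 lower and 12 higher members in CPM became 30 lower and 1 higher under the reference genes and 11 lower and 20 higher under the upper quartile. Under all 4 scalings, 11 members passed the limma test as lower, namely the 7 called members with *SLC25A29*, *SLC25A36*, *SLC25A38* and *SLC25A42*, against 36.7% of all genes. The other 8 lower members did not keep the call under each scaling, and under the upper quartile a fall of at least 2-fold was left for *SLC25A12*, *SLC25A44* and *SLC25A32*. *SLC25A39* was the 1 member higher under all 4, against 2.95% of all genes. The smaller rises of the other carriers given below are rises in CPM, and scaling to the reference genes made the fold changes of all of them negative apart from *SLC25A23*, as stated beside each group.

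**Figure D1:**
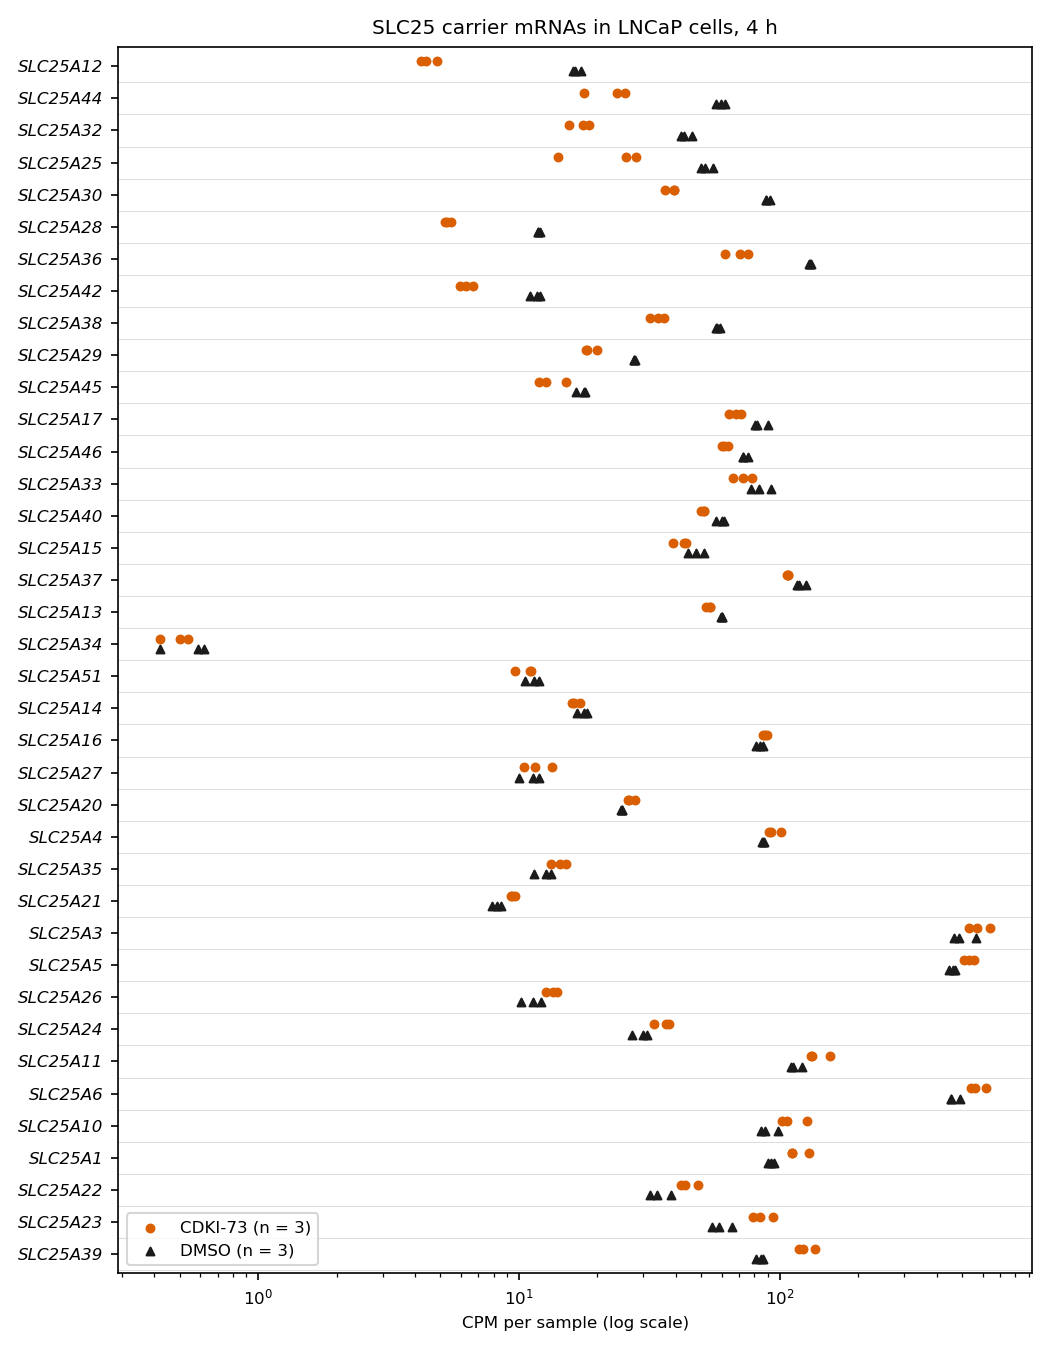
CPM (log10 axis) of 38 of the 39 members in each of the 3 CDKI-73 and 3 DMSO samples, 1 point per sample, with members ordered by their fold change. *SLC25A12* lies at 4.21 to 4.84 CPM with CDKI-73 and 16.09 to 17.23 CPM with DMSO, whereas the points of *SLC25A3*, at 531.39 to 642.67 CPM with CDKI-73 and 467.23 to 563.77 CPM with DMSO, overlap.

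The aspartate/glutamate carriers, which export aspartate from the matrix and are part of the malate-aspartate shuttle, gave the largest fall in the family. *SLC25A12* (also known as aralar, chromosome 2, 171783405 to 171999859, GRCh38, minus strand) had 4.39, 4.84 and 4.21 CPM in CDKI-73 samples, against 16.09, 17.23 and 16.40 CPM in DMSO samples. The 2 groups were far apart, with 27.0% of the DMSO level left (log2 fold change -1.87, SE 0.078, limma adjusted p = 1.9e-07). Its paralog *SLC25A13* (citrin, chromosome 7, 96120220 to 96322147) had 54.13, 53.98 and 52.14 CPM in CDKI-73 samples, against 59.83, 60.13 and 59.78 CPM in DMSO samples. These groups did not overlap either, but the change of -0.17 (SE 0.043, limma adjusted p = 0.0079) was small, and it was positive under scaling to the median of gene ratios or the upper quartile. Within each sample the *SLC25A12*/*SLC25A13* ratio was 0.0811, 0.0897 and 0.0807 with CDKI-73, against 0.269, 0.287 and 0.274 with DMSO, a log2 difference of -1.70 that does not depend on scaling (exact two-sided permutation p = 0.1, the smallest that 3 against 3 allows, and 0.125 adjusted over 10 pairs). Per kb of the canonical mRNA, *SLC25A12* had 1.14 CPM with CDKI-73 and 4.21 CPM with DMSO, and *SLC25A13* had 17.0 CPM per kb with CDKI-73 and 19.1 CPM per kb with DMSO, so the member with the larger fall was also the lower one of the pair in both groups.

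The RefSeq promoters of this pair, 250 bases before to 50 bases after the annotated start, are given because these genes encode carriers of the same substrates and the pair holds the member with the largest fall. Capitals mark the Sp1 box GGGCGG and the E-box CACGTG, on either strand. The windows are chr2:171894195-171894494 and chr7:96322049-96322348 (GRCh38.p14), each read from the minus strand. The *SLC25A12* window belongs to a start inside the annotated gene.
SLC25A12: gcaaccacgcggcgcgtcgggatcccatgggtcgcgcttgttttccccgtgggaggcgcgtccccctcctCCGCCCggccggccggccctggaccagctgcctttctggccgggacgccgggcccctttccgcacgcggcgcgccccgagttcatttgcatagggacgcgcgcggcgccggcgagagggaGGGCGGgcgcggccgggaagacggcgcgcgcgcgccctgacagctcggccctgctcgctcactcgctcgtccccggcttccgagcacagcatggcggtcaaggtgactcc
SLC25A13: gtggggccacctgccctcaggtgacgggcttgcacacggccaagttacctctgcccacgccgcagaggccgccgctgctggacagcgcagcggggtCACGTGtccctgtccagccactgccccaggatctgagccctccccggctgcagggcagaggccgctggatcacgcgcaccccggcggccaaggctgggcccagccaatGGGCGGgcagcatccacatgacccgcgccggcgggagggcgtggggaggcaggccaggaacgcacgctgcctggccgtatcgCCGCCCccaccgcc
Both windows held Sp1 boxes, as did 24 of the 33 members with a promoter in the RefSeq table (72.7%), 70.3% of the 9487 tested genes with one and 44.6% of all 27305 promoters. *SLC25A13* alone of the pair held the E-box, which was in 6 of 33 members (18.2%), 10.3% of tested genes and 7.43% of all promoters.

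Among the other carriers of amino acids, acylcarnitine and glutathione, *SLC25A44*, which imports branched-chain amino acids, had the second largest fall. *SLC25A44* (chromosome 1, 156193932 to 156212796) had 23.80, 25.61 and 17.73 CPM in CDKI-73 samples, against 56.87, 59.80 and 61.71 CPM in DMSO samples. The groups did not overlap and replicate 3 was the lowest of the CDKI-73 samples (log2 fold change -1.42, SE 0.12, limma adjusted p = 1.4e-05, 37.6% of DMSO), and without that sample the change was -1.26. *SLC25A38*, the glycine carrier that feeds haem synthesis, fell to 34.04 ± 2.17 CPM with CDKI-73, against 57.84 ± 1.22 CPM with DMSO (SD, n = 3 each), a log2 fold change of -0.76 (limma adjusted p = 5.8e-06). *SLC25A29*, a carrier of basic amino acids, fell to 18.75 ± 1.02 CPM with CDKI-73, against 27.69 ± 0.0833 CPM with DMSO (log2 fold change -0.56, limma adjusted p = 4e-05). Of the 10 members in this role group, 7 were lower, 2 were higher and 1, the acylcarnitine carrier *SLC25A20*, did not pass (limma adjusted p = 0.081), beside 48.2% lower and 24.2% higher among all genes, with a group median of -0.21. The call of the ornithine carrier *SLC25A15* (log2 fold change -0.19, limma adjusted p = 0.035) was lost without replicate 1 or 2 of either group, at an adjusted p of up to 0.12, and its fold change was 0.01 when samples were scaled to the median of gene ratios. The glutamate carrier *SLC25A22* had 41.89, 43.32 and 48.78 CPM in CDKI-73 samples, against 38.15, 31.94 and 33.78 CPM in DMSO samples. All 3 CDKI-73 samples were the higher ones (log2 fold change 0.37, SE 0.083, limma adjusted p = 0.0042), while the fold change was -0.04 under scaling to the reference genes.

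The mitochondrial glutathione carriers *SLC25A39* and *SLC25A40* moved apart. *SLC25A39* (chromosome 17, 44319625 to 44324870) had 122.67, 118.56 and 136.71 CPM in CDKI-73 samples, against 84.88, 81.35 and 86.18 CPM in DMSO samples. This 1.5-fold rise was the largest in the family, with no overlap between groups (log2 fold change 0.58, SE 0.061, limma adjusted p = 4.3e-05). *SLC25A40* averaged 50.8 ± 0.794 CPM with CDKI-73 and 59.37 ± 2.32 CPM with DMSO (SD, n = 3 each; log2 fold change -0.22, limma adjusted p = 0.0031), a fall that turned to a positive value under scaling to the upper quartile. The *SLC25A39*/*SLC25A40* ratio was 2.46, 2.31 and 2.68 in CDKI-73 samples, against 1.41, 1.33 and 1.52 in DMSO samples, a log2 difference of 0.80 (exact permutation p = 0.1, adjusted 0.125).

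**Figure D2:**
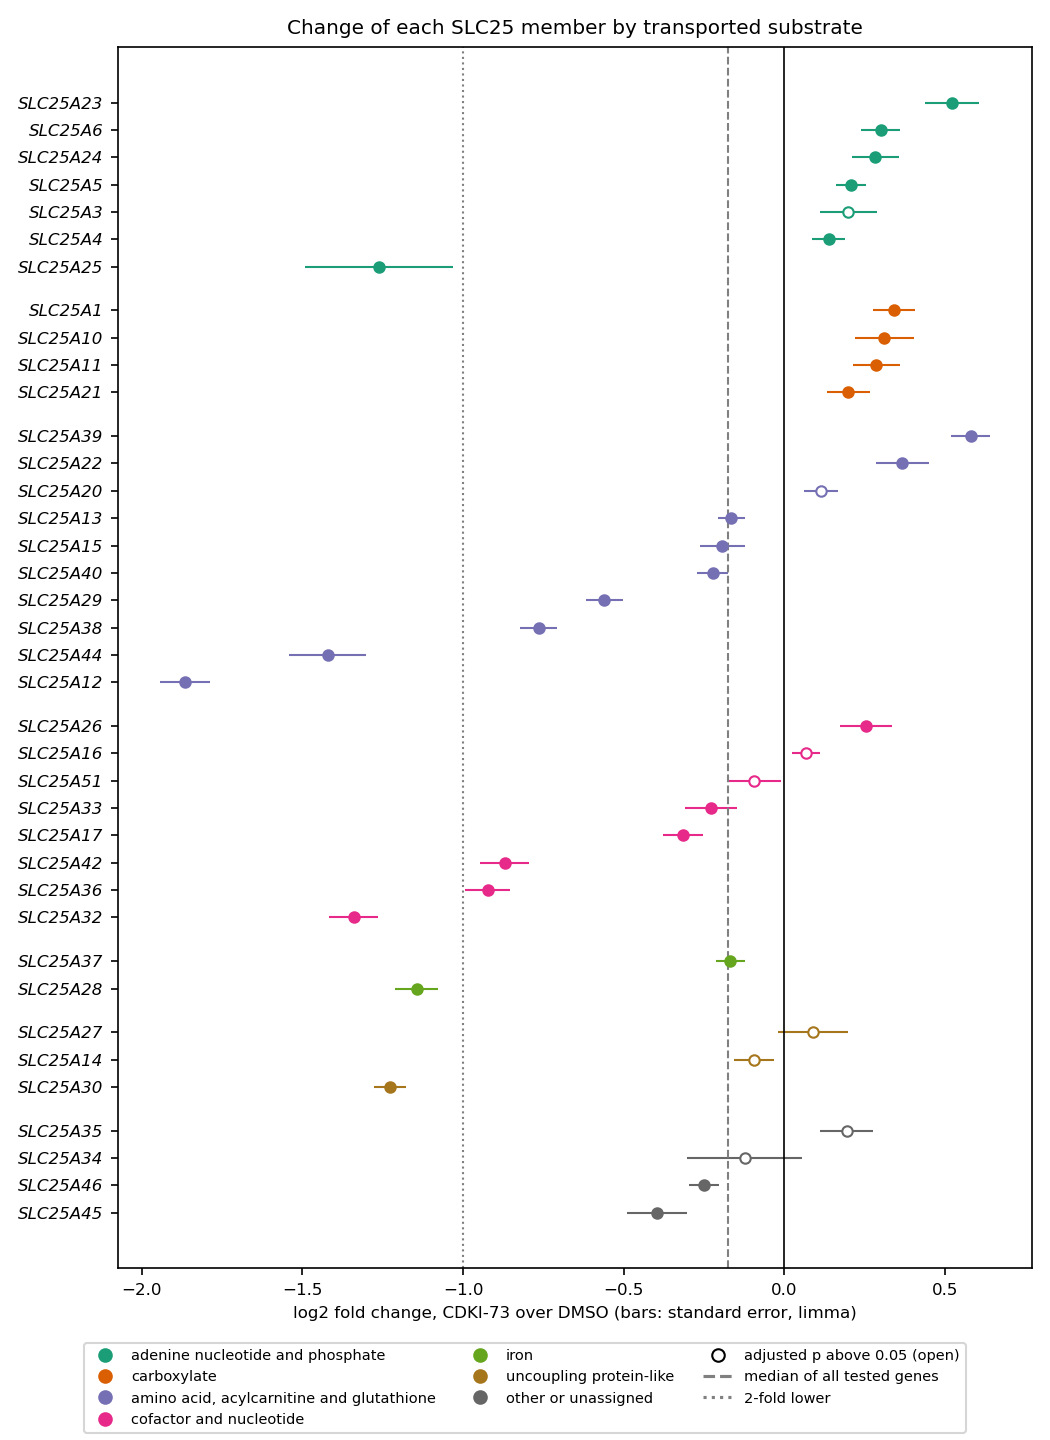
Log2 fold change of CPM, CDKI-73 over DMSO, for 38 of the 39 members with the standard error from limma as bars, grouped by transport role. The values run between -1.87 for *SLC25A12* and 0.58 for *SLC25A39*, and 6 of the members drawn lie at or below the 2-fold line at -1.

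Among the ADP/ATP and phosphate carriers, which supply the ATP synthase and export its product, *SLC25A3*, *SLC25A5* and *SLC25A6* were the members with the highest CPM. Of the 7 members that move adenine nucleotides or phosphate, 5 were higher in CPM, *SLC25A25* was lower and *SLC25A3* did not pass. This stands beside 48.2% lower and 24.2% higher among all genes, and beside 1055 higher among the 2261 genes at 100 CPM or more. *SLC25A4*, *SLC25A23* and *SLC25A24* were at 20 to 100 CPM, where 1130 of 4957 genes were higher. Of the 5, only *SLC25A23* stayed above 0 under scaling to the reference genes. *SLC25A5* (chromosome X, 119468422 to 119471396) had 507.84, 531.51 and 554.55 CPM in CDKI-73 samples, against 469.60, 463.08 and 446.92 CPM in DMSO samples. *SLC25A6* (chromosome X, 1386152 to 1392113, in the pseudoautosomal region) had 562.24, 539.02 and 619.21 CPM in CDKI-73 samples, against 489.66, 452.83 and 454.03 CPM in DMSO samples. *SLC25A4* (chromosome 4, 185143266 to 185150382), the isoform best known from heart and skeletal muscle, had 92.67, 91.29 and 100.97 CPM in CDKI-73 samples, against 86.26, 87.42 and 85.24 CPM in DMSO samples. For all 3 genes the CDKI-73 samples were the higher ones in CPM without overlap, by 0.21 (limma adjusted p = 0.0043), 0.30 (adjusted p = 0.0024) and 0.14 (adjusted p = 0.039) on the log2 scale in the order given, and all 3 fold changes were negative under scaling to the reference genes (-0.20, -0.11 and -0.27). The call of *SLC25A4* was lost in 5 of 6 limma fits that left out 1 sample, all but that without CDKI-73 replicate 2, at an adjusted p of up to 0.11. Per kb of mRNA the levels of *SLC25A5* were 407 CPM with CDKI-73 and 352 CPM with DMSO, those of *SLC25A6* were 395 and 321 CPM, and those of *SLC25A4* were 21.5 and 19.5 CPM, so *SLC25A4* was far below the other 2 in both groups. The *SLC25A6*/*SLC25A5* ratio overlapped between groups (log2 difference 0.09, exact permutation p = 0.3). The phosphate carrier *SLC25A3* averaged 581.1 ± 56.6 CPM with CDKI-73 and 506.3 ± 50.8 CPM with DMSO (SD, n = 3 each), with overlapping samples (limma adjusted p = 0.075). *SLC25A3*, *SLC25A5* and *SLC25A6* have processed pseudogenes of near-identical sequence. The paper counted reads with STAR in its GeneCounts mode, and the effect of reads that fit both gene and pseudogene was not tested.

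The family was also compared as a sum, for which the exact test of 3 samples against 3 cannot give a p below 0.1. The 39 members together had 3237.5, 3279.4 and 3525.1 CPM in CDKI-73 samples, against 3390.7, 3229.5 and 3186.1 CPM in DMSO samples. These sums overlapped in CPM (ratio of means 1.02, exact permutation p = 0.5), but the direction depended on scaling, with the groups apart at a ratio of 0.772 under the reference genes, 1.178 under the median of gene ratios and 1.24 under the upper quartile. The ADP/ATP carriers made up 35.8 ± 0.373% of that sum with CDKI-73 and 31.0 ± 0.117% with DMSO (SD, n = 3 each), without overlap (exact permutation p = 0.1). The 7 members called lower made up 3.53 ± 0.497% of the sum with CDKI-73 and 8.85 ± 0.258% with DMSO, a difference that the call itself fixes. These 2 shares, unlike the sum, do not depend on the scaling of samples.

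The calcium-regulated ATP-Mg/phosphate carriers, which adjust the adenine nucleotide content of the matrix, differed among themselves. *SLC25A25* (chromosome 9, 128068201 to 128109245) had 25.69, 28.21 and 14.13 CPM in CDKI-73 samples, against 55.41, 51.63 and 49.89 CPM in DMSO samples. All CDKI-73 samples lay below all DMSO samples, with replicate 3 the lowest (log2 fold change -1.26, SE 0.23, limma adjusted p = 0.0011), and without it the fold change was -0.95 and short of 2-fold. The paralog *SLC25A24* had 37.50, 36.73 and 32.87 CPM in CDKI-73 samples, against 27.21, 30.95 and 29.88 CPM in DMSO samples. *SLC25A23* had 94.35, 83.66 and 78.81 CPM in CDKI-73 samples, against 55.13, 58.49 and 65.36 CPM in DMSO samples. Both were higher with CDKI-73 without overlap in CPM, by 0.28 (SE 0.073, limma adjusted p = 0.0081) and 0.52 (SE 0.084, limma adjusted p = 0.00063), whereas under scaling to the reference genes *SLC25A24* was at -0.12 and *SLC25A23* at 0.11 with an adjusted p of 0.34. The *SLC25A25*/*SLC25A23* ratio was 0.272, 0.337 and 0.179 in CDKI-73 samples, against 1.01, 0.883 and 0.763 in DMSO samples, the widest change of the 10 pairs with a log2 difference of -1.78 (exact permutation p = 0.1, adjusted 0.125). Its log2 ratio had an SD of 0.46 among CDKI-73 samples, with replicate 3 the lowest. The *SLC25A12*/*SLC25A13* difference was -1.70 with an SD of 0.083 among CDKI-73 samples, so the order of these 2 pairs lies within that spread.

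**Figure D3:**
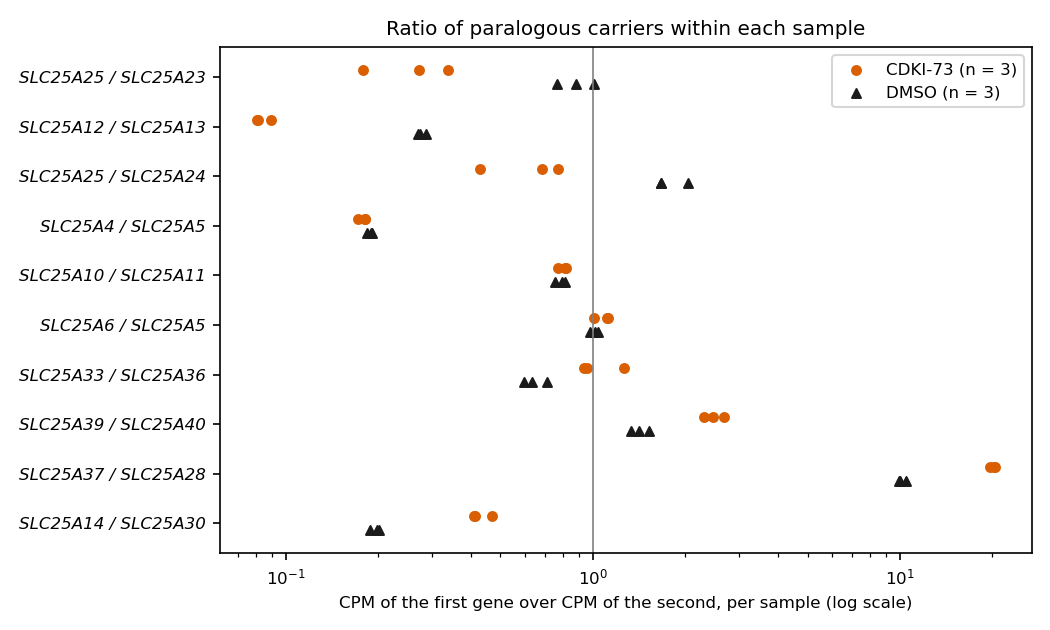
Ratio of CPM within each sample (log axis) for the 10 paralog pairs, with 3 CDKI-73 and 3 DMSO samples as points. The groups are apart in 8 of the 10 pairs, the *SLC25A25*/*SLC25A23* ratio being 0.179 to 0.337 with CDKI-73 and 0.763 to 1.01 with DMSO, and overlap for *SLC25A6*/*SLC25A5* and *SLC25A10*/*SLC25A11*. For single genes, the CDKI-73 samples were all below in 50.0% and all above in 25.9% of tested genes. The share among other gene pairs was not computed.

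Cofactor and nucleotide carriers fell in 6 of 9 cases, rose in 1 and did not pass in 2, beside 48.2% lower and 24.2% higher among all genes, with a group median of -0.32. *SLC25A32* (chromosome 8, 103398635 to 103415189), linked to the import of folate and flavin cofactors, had 15.53, 17.54 and 18.51 CPM in CDKI-73 samples, against 46.01, 43.02 and 41.76 CPM in DMSO samples. The groups were well apart, with 39.4% of the DMSO level left (log2 fold change -1.34, SE 0.076, limma adjusted p = 1e-06). *SLC25A42*, a coenzyme A carrier, averaged 6.29 ± 0.35 CPM with CDKI-73 and 11.59 ± 0.533 CPM with DMSO (SD, n = 3 each; log2 fold change -0.87, limma adjusted p = 1.4e-05). The 1 member of the group that rose was *SLC25A26*, the S-adenosylmethionine carrier, by 0.25 in CPM (limma adjusted p = 0.022), with -0.15 under scaling to the reference genes. That call was lost without CDKI-73 replicate 2, DMSO replicate 2 or DMSO replicate 3, at an adjusted p of up to 0.079. The peroxisomal carrier *SLC25A17* averaged 67.59 ± 3.48 CPM with CDKI-73 and 84.25 ± 5.35 CPM with DMSO (SD, n = 3 each; log2 fold change -0.32, limma adjusted p = 0.0018). It did not pass under scaling to the median of gene ratios (-0.115, limma adjusted p = 0.13) or the upper quartile (-0.041, limma adjusted p = 0.57). The NAD carrier *SLC25A51* (limma adjusted p = 0.34) and *SLC25A16* (limma adjusted p = 0.2) did not pass. The effect of reads that fit both *SLC25A51* and its near-identical relative *SLC25A52* was not tested.

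The pyrimidine nucleotide carriers *SLC25A33* and *SLC25A36* differed in the size of their change. *SLC25A36* (chromosome 3, 140941830 to 140980995) had 70.41, 75.28 and 61.84 CPM in CDKI-73 samples, against 130.02, 131.87 and 130.51 CPM in DMSO samples. The groups were clearly separate at 52.9% of DMSO (log2 fold change -0.92, SE 0.07, limma adjusted p = 6e-06), just short of 2-fold. *SLC25A33* had 66.14, 72.08 and 78.16 CPM in CDKI-73 samples, against 92.59, 83.44 and 77.65 CPM in DMSO samples. These groups overlapped (log2 fold change -0.23, limma adjusted p = 0.033), and the fold change was 0.05 under scaling to the upper quartile. The call was lost without replicate 1 or 2 of either group, at a limma adjusted p of up to 0.12. The *SLC25A33*/*SLC25A36* ratio was 0.939, 0.957 and 1.26 with CDKI-73, against 0.712, 0.633 and 0.595 with DMSO, a log2 difference of 0.69 (exact permutation p = 0.1, adjusted 0.125).

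The promoter windows of *SLC25A25* (chr9:128098257-128098556, plus strand) and *SLC25A36* (chr3:140941586-140941885, plus strand) are shown because both held TGACGTCA, the cyclic AMP response element, as *SLC25A33* did. Capitals mark that element and, in *SLC25A36*, also the E-box and the Sp1 box.
SLC25A25: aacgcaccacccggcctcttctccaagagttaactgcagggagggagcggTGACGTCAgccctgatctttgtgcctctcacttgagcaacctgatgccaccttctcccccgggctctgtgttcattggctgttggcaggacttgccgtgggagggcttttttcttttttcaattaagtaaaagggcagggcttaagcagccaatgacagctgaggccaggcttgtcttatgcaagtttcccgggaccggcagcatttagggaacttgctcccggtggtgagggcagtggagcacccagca
SLC25A36: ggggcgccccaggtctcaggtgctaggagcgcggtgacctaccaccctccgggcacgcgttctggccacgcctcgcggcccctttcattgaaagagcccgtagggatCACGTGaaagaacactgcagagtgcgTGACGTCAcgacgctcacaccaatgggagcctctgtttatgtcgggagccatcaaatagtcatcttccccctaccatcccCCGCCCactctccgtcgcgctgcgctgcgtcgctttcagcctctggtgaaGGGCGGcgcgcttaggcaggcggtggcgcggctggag
The element began 200 bases before the start in *SLC25A25* and 117 bases before it in *SLC25A36*. The *SLC25A25* window belongs to a start inside the annotated gene. TGACGTCA was in 3 of 33 member promoters (9.09%), 3.31% of those of tested genes and 1.98% of all promoters. The log2 fold changes were -1.26 for *SLC25A25*, -0.92 for *SLC25A36* and -0.23 for *SLC25A33*. The direction of the other tested genes holding the element was not computed, and a link of the element with the falls was not tested. The ETS core CCGGAAG, searched on both strands like the others, was in 7 of 33 (21.2%), close to the 19.7% of tested genes, and TATAAA in 2 of 33, *SLC25A5* and *SLC25A26* (6.06%, against 5.2% of tested genes).

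The mitoferrins, which bring iron into the matrix for haem and iron-sulfur cluster synthesis, were unequal. *SLC25A28* (mitoferrin-2, chromosome 10, 99610519 to 99622793) had 5.29, 5.47 and 5.23 CPM in CDKI-73 samples, against 11.82, 11.84 and 12.05 CPM in DMSO samples. The replicates were tight and the groups far apart, at 44.8% of DMSO (log2 fold change -1.145, SE 0.066, limma adjusted p = 1.1e-06). *SLC25A37* (mitoferrin-1, chromosome 8, 23528956 to 23575463), best known from erythroid cells, had 107.70, 107.98 and 106.17 CPM in CDKI-73 samples, against 116.98, 118.88 and 126.22 CPM in DMSO samples. Its groups did not overlap either, at a log2 fold change of -0.17 (SE 0.045, limma adjusted p = 0.009), which was positive under scaling to the median of gene ratios (0.03) or the upper quartile (0.11). The *SLC25A37*/*SLC25A28* ratio was 20.4, 19.7 and 20.3 in CDKI-73 samples, against 9.9, 10.0 and 10.5 in DMSO samples, a log2 difference of 0.98 (exact permutation p = 0.1, adjusted 0.125).

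Of the 3 carriers related in sequence to the uncoupling proteins, *SLC25A30* alone passed the test. *SLC25A30* (chromosome 13, 45393316 to 45418455) had 39.26, 39.43 and 36.41 CPM in CDKI-73 samples, against 88.85, 92.16 and 88.81 CPM in DMSO samples. Its groups were far apart, at 42.7% of DMSO (log2 fold change -1.23, SE 0.05, limma adjusted p = 1.7e-07). *SLC25A14* had 16.05, 16.28 and 17.12 CPM in CDKI-73 samples, against 17.83, 18.24 and 16.74 CPM in DMSO samples, with overlap (log2 fold change -0.09, limma adjusted p = 0.2). *SLC25A27* averaged 11.81 ± 1.46 CPM with CDKI-73 and 11.07 ± 0.974 CPM with DMSO (SD, n = 3 each; limma adjusted p = 0.47). The *SLC25A14*/*SLC25A30* ratio was 0.409, 0.413 and 0.47 with CDKI-73, against 0.201, 0.198 and 0.188 with DMSO (log2 difference 1.13, exact permutation p = 0.1, adjusted 0.125).

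All 4 carboxylate carriers, which exchange citrate, malate, succinate, oxoglutarate and related acids, were higher in CPM without overlap between groups. The rises were 0.20 to 0.34 on the log2 scale, and all 4 fold changes were negative under scaling to the reference genes. Of all genes, 24.2% passed as higher and 25.9% had every CDKI-73 sample above every DMSO sample. Among the 2261 genes at 100 CPM or more, the level of *SLC25A1*, *SLC25A10* and *SLC25A11*, 1055 were higher. *SLC25A21* was under 20 CPM, where 1057 of 6155 genes were higher. The citrate carrier *SLC25A1* (chromosome 22, 19175581 to 19178739), which supplies cytosolic citrate for lipid synthesis, had 111.34, 111.55 and 129.02 CPM in CDKI-73 samples, against 94.71, 90.10 and 92.42 CPM in DMSO samples. Its fold change was 0.34 (SE 0.064, limma adjusted p = 0.0015) and -0.07 under scaling to the reference genes. The dicarboxylate carrier *SLC25A10* (chromosome 17, 81712236 to 81721016) had 106.91, 101.93 and 127.27 CPM in CDKI-73 samples, against 98.30, 84.50 and 87.58 CPM in DMSO samples. Its fold change was 0.31 (SE 0.092, limma adjusted p = 0.015) and -0.10 under scaling to the reference genes, and the call was lost without DMSO replicate 2 or 3 (adjusted p of up to 0.059). The oxoglutarate/malate carrier *SLC25A11*, the partner of *SLC25A12* and *SLC25A13* in the malate-aspartate shuttle, averaged 140.1 ± 13.3 CPM with CDKI-73 and 114.8 ± 5.92 CPM with DMSO (SD, n = 3 each; log2 fold change 0.28, limma adjusted p = 0.0076, and -0.12 under scaling to the reference genes). The oxodicarboxylate carrier *SLC25A21* averaged 9.457 ± 0.176 CPM with CDKI-73 and 8.237 ± 0.33 CPM with DMSO (log2 fold change 0.20, limma adjusted p = 0.028, and -0.21 under scaling to the reference genes), a call lost without CDKI-73 replicate 1 or 2 or DMSO replicate 1 or 3 (adjusted p of up to 0.093). The antisense transcript *SLC25A21-AS1* had 3.21, 3.22 and 2.99 CPM in CDKI-73 samples, against 9.22, 9.32 and 9.70 CPM in DMSO samples. It fell by 1.55 on the log2 scale (SE 0.077, limma adjusted p = 4.5e-07), opposite in direction to the sense gene in CPM. The libraries were stranded, but the sources used here do not state which strand was counted, so this pair and the 19 members with an exon that overlaps an exon of another gene on the opposite strand, 5 of them among the 7 called, carry that uncertainty.

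**Figure D4:**
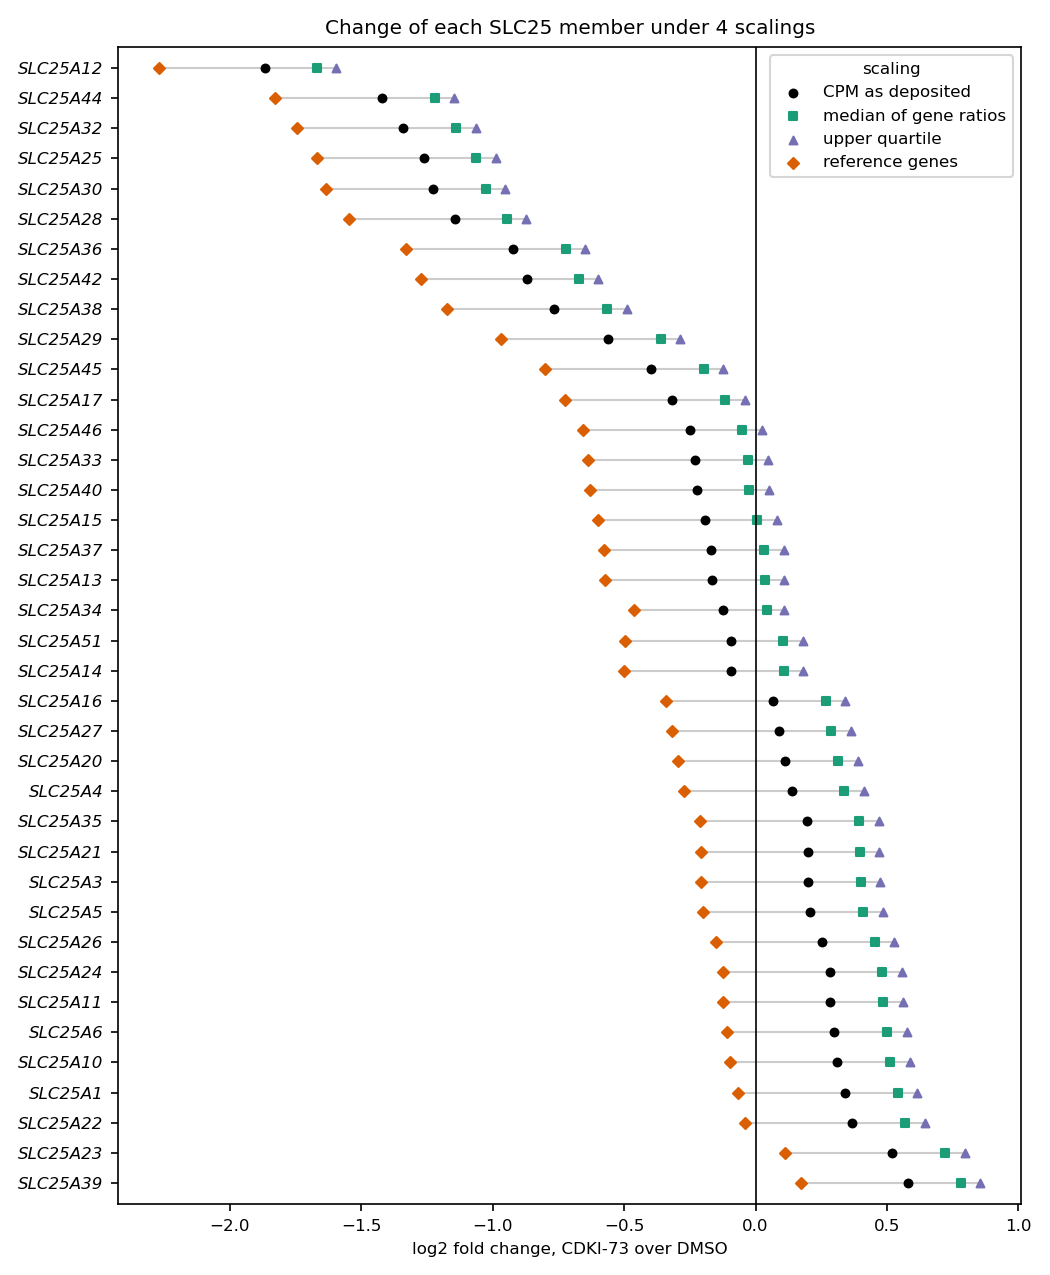
Log2 fold change (CDKI-73 over DMSO) of 38 of the 39 members in CPM and under scaling to the 3 reference genes, the upper quartile and the median of gene ratios. The median over all 39 members is -0.12 in CPM and lies between -0.50 and 0.11 under the other scalings, while *SLC25A12* and the other called members stay below 0 and *SLC25A39* stays above 0 under each.

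The remaining 4 members have other or unassigned roles. *SLC25A46*, an outer membrane protein of mitochondrial dynamics, averaged 61.54 ± 1.73 CPM with CDKI-73 and 73.26 ± 1.9 CPM with DMSO (SD, n = 3 each; log2 fold change -0.25, limma adjusted p = 0.0012, and 0.03 under scaling to the upper quartile). *SLC25A45* averaged 13.26 ± 1.65 CPM with CDKI-73 and 17.41 ± 0.728 CPM with DMSO (log2 fold change -0.40, limma adjusted p = 0.0048). Under scaling to the upper quartile its fold change was -0.122 and did not pass. *SLC25A35* did not pass (limma adjusted p = 0.062), and *SLC25A34*, the member nearest above the level threshold, had 0.54, 0.42 and 0.50 CPM in CDKI-73 samples, against 0.62, 0.42 and 0.59 CPM in DMSO samples. Nearest below the threshold was the glutamate carrier *SLC25A18*, with 0.35, 0.42 and 0.26 CPM in CDKI-73 samples, against 0.49, 0.55 and 0.74 CPM in DMSO samples. It and 7 other listed genes of the family (*SLC25A31*, *SLC25A41*, *SLC25A43*, *SLC25A47*, *SLC25A48*, *SLC25A52* and *SLC25A53*) were not tested.

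The members' own level went with their direction to some extent, as it did among all genes. Of the 9 members with a mean of at least 100 CPM, 2 were lower and 6 higher in CPM, with a median of 0.28. Of the 2261 genes at that level, 627 were lower and 1055 higher, with a median of 0.11. Of the 18 members at 20 to 100 CPM, 12 were lower and 4 higher, with a median of -0.23, and of 4957 genes at that level 2691 were lower and 1130 higher, with a median of -0.24. Of the 12 members under 20 CPM, 5 were lower and 2 higher, with a median of -0.11, and of 6155 genes at that level 3123 were lower and 1057 higher, with a median of -0.32. Across the 39 members, Spearman's rho of the fold change with mean CPM was 0.39 (Pearson's r 0.29), against a rho of 0.20 over all tested genes, a description over genes that share the same 6 libraries. The 7 called genes spanned a median of 18.9 kb (12.3 to 216 kb), against 25.1 kb for the other members (2.92 to 495 kb) and 33.2 kb for tested genes with an annotation. The ranges of called and other members thus overlapped. Spearman's rho of the fold change with log2 span was -0.30 over members and -0.07 over tested genes. The coefficient of variation between replicates had a median of 6.95% with CDKI-73 (0.908 to 33.1%, the highest in *SLC25A25*) and 4.18% with DMSO (0.301 to 19.9%). Among CDKI-73 samples, replicate 3 held the highest value in 23 members and the lowest in 14.

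Genes that work with the carriers moved in both directions. Of 56 such genes on 9 lists, 48 were tested, of which 13 fell and 22 rose in CPM at a limma adjusted p of 0.05 or less, against 48.2% and 24.2% of all genes, with a median log2 fold change of 0.11, whereas 32 were lower under scaling to the reference genes. Of the proteins that carry newly made carriers into the inner membrane, 8 were tested, with 4 lower and 3 higher, beside 48.2% and 24.2% of all genes. The small TIM chaperone genes *TIMM10B* and *TIMM9* fell by 1.65 (limma adjusted p = 4.2e-07) and 1.39 (adjusted p = 7.5e-07) on the log2 scale. Of 6 tested regulators of mitochondrial gene expression, all fell in CPM, against 48.2% of all genes, and 3 of them by at least 2-fold. Under scaling to the median of gene ratios or the upper quartile 3 of the 6 passed as lower, and *TFAM* was above 0. *PPARGC1B*, a coactivator of nuclear genes for mitochondrial proteins, averaged 0.8467 ± 0.225 CPM with CDKI-73 and 7.03 ± 0.697 CPM with DMSO (SD, n = 3 each), a log2 fold change of -2.94 (limma adjusted p = 1.4e-06). Its relative *PPRC1* averaged 6.443 ± 1.21 CPM with CDKI-73 and 42.65 ± 2.94 CPM with DMSO, a log2 fold change of -2.72 (limma adjusted p = 4.2e-07).

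Other lists held smaller changes, and the rises among them are rises in CPM that scaling to the reference genes did not keep. Their counts stand beside 48.2% lower and 24.2% higher among all genes, and beside 1055 higher among the 2261 genes at 100 CPM or more. At 20 to 100 CPM, the level of *SMDT1*, *SFXN3*, *NFS1* and *CRAT*, 1130 of 4957 genes were higher. Among the malate-aspartate shuttle enzymes, 3 of 4 were higher, with *MDH2* at 0.50 (limma adjusted p = 5e-05) and *GOT2* at 0.31 (adjusted p = 0.00014), beside the fall of *SLC25A12*. Of the calcium uniporter genes, 3 of 6 were higher, with *SMDT1* at 0.43 (limma adjusted p = 0.0028) and *MICU2* at 0.33 (adjusted p = 0.00017). Of 7 pyruvate carrier and sideroflexin genes, 4 were higher, with *SFXN3* at 0.43 (limma adjusted p = 0.00033) and *MPC2* at 0.29 (adjusted p = 0.00059). Of 8 haem and iron-sulfur assembly genes, 2 were lower and 4 higher, with *ALAS1*, the first enzyme of haem synthesis, at -0.35 (limma adjusted p = 0.00034) and the cysteine desulfurase *NFS1* at 0.30 (adjusted p = 0.00031). Under scaling to the upper quartile, 0 genes of this list passed as lower. Of 4 tested carnitine shuttle enzymes, 2 were higher, *CRAT* by 0.52 (limma adjusted p = 6.4e-05) and *CPT2* by 0.10 (adjusted p = 0.037), the call of *CPT2* being lost in 5 of 6 fits that left out 1 sample, all but that without CDKI-73 replicate 3 (adjusted p of up to 0.12). The outer membrane channel *VDAC1* was higher by 0.29 (limma adjusted p = 0.00027) and *VDAC3* was lower at -0.15 (adjusted p = 0.032), a sign that turned under scaling to the median of gene ratios or the upper quartile and a call lost without replicate 1 or 2 of either group (adjusted p of up to 0.12). The carrier relatives of the outer membrane *MTCH1* and *MTCH2* were both higher, by 0.34 (limma adjusted p = 0.00014) and 0.18 (adjusted p = 0.004).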

How the data were processed

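RNA-seq of LNCaP cells was analysed from the deposited table of CPM per gene. The authors aligned stranded, polyA-enriched single-end reads with STAR (genome build hg38), counted them per gene, and tested TMM counts with edgeR 3.3 in R 3.2.3, and they deposited CPM that carry no TMM factor. FastQC is also named in the submitters' processing notes. The annotation and the counted strand are not stated in the sources used here. All sample columns were matched to labels.

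CPM are not counts, so limma 3.58.1 (R 4.3.3) was run on log2(CPM + 0.1) for genes whose mean CPM was 0.5 or more (eBayes with an intensity trend, no block), with Benjamini-Hochberg adjustment over all 13373 genes. Fold changes are on that scale and understate low genes. Members named as called needed 2-fold or more and an adjusted p of 0.05 or less. For changes under 2-fold, a call kept or lost refers to the adjusted p alone. Methods call the replicates biological. The script was tested on simulated data. Paralog ratios were compared by exact two-sided permutation tests with SciPy 1.17.1, and data were joined and plotted with pandas 2.3.3 and matplotlib 3.10.9 in Python 3.11.15. Reads per sample were inferred from the step between CPM values. Gene coordinates and mRNA lengths came from GENCODE (GRCh38), and promoters from RefSeq (GRCh38.p14), which matched 33 of 39 members.

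The members, role groups, paralog pairs and partner lists were chosen with earlier results of these data known. Values in every sample are given for called members, the 6 largest rises, the ADP/ATP carriers, partners of called members in paralog pairs and the members nearest the level threshold. Up to 2 genes per partner list are named by size of change. The values of 1 member, which enters all counts and sums, are not reported here. Alternatives were pseudocounts of 0.01 and 1, no filter or a mean CPM of at least 2, 3 other scalings, limma without trend or robust, a block for the replicate number, leaving out each sample in turn and, chosen after seeing the data, limma voom on inferred reads.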

Additional observations from a re-analysis of the deposited data

How the results depend on the processing

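Scaling had the largest effect. Members lower at a limma adjusted p of 0.05 or less numbered 19 in CPM, 11 under scaling to the median of gene ratios, 11 under the upper quartile and 30 under the reference genes. Members higher numbered 12 in CPM, 20 under the upper quartile and 1 under the reference genes. Falls of at least 2-fold numbered 7 in CPM, 3 under the upper quartile and 10 under the reference genes. Partner genes lower numbered 13 in CPM, 8 under the median of gene ratios, 7 under the upper quartile and 32 under the reference genes. Partner genes higher numbered 22 in CPM, 34 under the upper quartile and 0 under the reference genes, where limma also gave 0 at an unadjusted p under 0.05, and limma voom without that scaling gave 22. The median over members was -0.12 in CPM, 0.045 under the median of gene ratios, 0.110 under the upper quartile and -0.499 under the reference genes. These counts move because each scaling shifts every gene by the same amount within a sample.

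Under the reference genes, log2 fold changes turned to -0.067 for *SLC25A1*, -0.209 for *SLC25A3*, -0.271 for *SLC25A4*, -0.200 for *SLC25A5*, -0.108 for *SLC25A6*, -0.097 for *SLC25A10*, -0.123 for *SLC25A11*, -0.341 for *SLC25A16*, -0.293 for *SLC25A20*, -0.206 for *SLC25A21*, -0.039 for *SLC25A22*, -0.125 for *SLC25A24*, -0.152 for *SLC25A26*, -0.316 for *SLC25A27* and -0.210 for *SLC25A35*. Under the median of gene ratios and the upper quartile they turned to 0.036 and 0.110 for *SLC25A13*, 0.107 and 0.181 for *SLC25A14*, 0.007 and 0.081 for *SLC25A15*, 0.045 and 0.107 for *SLC25A34*, 0.032 and 0.107 for *SLC25A37*, and 0.106 and 0.180 for *SLC25A51*. Under the upper quartile alone they turned to 0.047 for *SLC25A33*, 0.052 for *SLC25A40* and 0.025 for *SLC25A46*.

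Leaving out each sample in turn gave 17 to 19 lower members, 8 to 11 higher members and 6 to 7 with a fall of at least 2-fold, 1 call being lost without CDKI-73 replicate 2 and that of *SLC25A25* without CDKI-73 replicate 3. It turned the value of *SLC25A27* to -0.005 (without CDKI-73 replicate 1), within a range of -0.005 to 0.169, and the *SLC25A10*/*SLC25A11* log2 difference, 0.03 with all samples, to -0.003 (without DMSO replicate 2), within a range of -0.003 to 0.053. A pseudocount of 1 left 6 members with a fall of at least 2-fold. With the replicate number as a block, 17 members were lower, 9 higher and 7 lower by at least 2-fold. Samples with the same replicate number did not deviate together (correlations of -0.295, 0.106 and -0.227, against -0.223 to 0.339 for different numbers). With 3 samples per group, these correlations cannot show whether the numbers pair the samples. Limma voom on inferred reads, chosen after seeing the data, gave 19 lower and 12 higher members. The inferred depth leaves members near 0.5 CPM with few reads, and 3 samples per group cannot give an exact p below 0.1.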
